A study of Mus musculus with 2 samples.

Results

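The 9 genes described here are the effector genes by which cytotoxic lymphocytes kill and signal: Gzma, Gzmb, Gzmk, Prf1, Nkg7, Ccl5, Ifng, Fasl and Klrk1. They were taken by name, as 9 of the 21855 genes in the deposited table, and the rule used no measured value. Each was followed across natural killer (NK), CD8, CD4 and gamma delta T cells and the other marker-defined cell classes of 2 mouse kidney libraries. Droplet single-cell RNA sequencing had been done on 1 kidney library of folic acid (FA)-induced nephropathy and 1 control kidney library, both from wild-type mice. FA is a vitamin that injures kidney tubules when given in excess. The sources used here do not state the dose, the time after FA, or the age, sex and number of animals. The study as a whole concerns the pore-forming proteins GSDMD and GSDME in this injury.

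Cytotoxic lymphocytes store perforin and granzymes in secretory granules. Perforin opens pores in the membrane of a target cell, and granzymes, which are serine proteases, enter through them and start cell death. The same cells can kill through Fas ligand, recognise stressed cells through the receptor NKG2D, and secrete interferon gamma and chemokines that act on macrophages and other leukocytes. In the kidney such cells are known from rejection, from ischaemic injury and from the resident lymphocyte pool.

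On GRCm38 the genes lie at chr13:113093825-113100981 (Gzma, minus strand), chr14:56258838-56262260 (Gzmb, minus strand), chr13:113171608-113225908 (Gzmk, minus strand), chr10:61297833-61304680 (Prf1, plus strand), chr7:43437073-43438249 (Nkg7, plus strand), chr11:83525778-83530518 (Ccl5, minus strand), chr10:118441046-118445892 (Ifng, plus strand), chr1:161780689-161788495 (Fasl, minus strand), chr6:129610323-129623864 (Klrk1, minus strand). Gzma and Gzmk both lie on chromosome 13. RefSeq held a start-site window for 8 of the 9 genes on GRCm38.p6, each running from 250 bases before to 50 bases after the start. The windows of 5 genes are shown: Gzma, Gzmb and Ifng, which were called higher in both CD8 and CD4 cells of FA, and Nkg7 and Klrk1, which were called lower in both NK and CD4 cells. The CD4 call of Gzma rests on 32 transcripts counted in 5 FA cells and 1 in control. Capitals mark every match, on either strand, to the core letters AGGTGTGA (T-box factors), TGTGGTT (Runx factors), TGANTCA (AP-1) or CAGGAAG (Ets factors).
Gzma, chr13:113100932-113101231, minus strand: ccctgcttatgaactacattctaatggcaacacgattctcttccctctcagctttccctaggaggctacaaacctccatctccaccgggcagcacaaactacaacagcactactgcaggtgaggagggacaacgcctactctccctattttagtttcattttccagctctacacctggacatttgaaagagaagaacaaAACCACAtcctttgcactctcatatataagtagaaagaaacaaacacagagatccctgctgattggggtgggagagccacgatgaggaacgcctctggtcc
Gzmb, chr14:56262285-56262584, minus strand: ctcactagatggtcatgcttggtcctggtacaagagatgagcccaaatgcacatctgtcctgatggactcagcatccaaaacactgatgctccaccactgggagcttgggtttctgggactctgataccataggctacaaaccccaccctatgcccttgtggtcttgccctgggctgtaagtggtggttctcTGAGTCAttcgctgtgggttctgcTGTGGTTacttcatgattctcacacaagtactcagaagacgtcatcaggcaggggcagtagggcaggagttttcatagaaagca
Ifng, chr10:118440796-118441095, plus strand: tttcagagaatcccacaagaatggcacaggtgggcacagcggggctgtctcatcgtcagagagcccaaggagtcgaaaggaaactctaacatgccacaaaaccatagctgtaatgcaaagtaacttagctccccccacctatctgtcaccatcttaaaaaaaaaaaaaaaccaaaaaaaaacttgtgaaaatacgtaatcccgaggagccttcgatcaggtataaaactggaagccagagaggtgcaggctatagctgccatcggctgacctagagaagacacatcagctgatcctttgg
Nkg7, chr7:43436888-43437187, plus strand: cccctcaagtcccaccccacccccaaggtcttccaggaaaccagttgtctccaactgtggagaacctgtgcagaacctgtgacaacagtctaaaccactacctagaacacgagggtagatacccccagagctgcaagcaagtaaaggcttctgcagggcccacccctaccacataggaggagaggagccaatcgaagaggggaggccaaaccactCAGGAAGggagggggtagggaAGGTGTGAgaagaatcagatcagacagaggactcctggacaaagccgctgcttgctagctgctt
Klrk1, chr6:129623815-129624114, minus strand: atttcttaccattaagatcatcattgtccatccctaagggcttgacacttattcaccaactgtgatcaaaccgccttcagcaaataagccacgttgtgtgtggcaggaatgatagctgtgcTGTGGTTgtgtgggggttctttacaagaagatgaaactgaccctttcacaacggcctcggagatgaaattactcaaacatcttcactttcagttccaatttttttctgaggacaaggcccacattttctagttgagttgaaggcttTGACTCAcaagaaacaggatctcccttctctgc
The Runx letters began 51 bases before the start in Gzma, 34 before it in Gzmb and 129 before it in Klrk1, and 5.27% of 32851 promoter windows of the same length held them. The AP-1 letters began 58 bases before the start in Gzmb and 17 after it in Klrk1, against 7.81% of windows. Nkg7 held the T-box letters 14 bases before the start, against 1.28% of windows, and the Ets letters 35 bases before it, against 13.3%. The windows not printed held the Ets letters in Prf1, 197 and 110 bases before the start, and in Fasl, 25 bases before it. None of the 4 sets of letters lay in the windows of Ifng or Gzmk. A match is a run of letters and not a measured binding site.

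The FA library held 18997 barcodes and 84138607 unique molecular identifiers (UMIs, each standing for 1 captured RNA molecule), and the control library held 9681 barcodes and 63646459 UMIs. After filters and removal of likely doublets, 13502 FA and 5807 control cells remained; their median depth was 2929 UMIs in FA and 4907 UMIs in control. The libraries shared 54 barcode sequences, 31 of them among kept cells. They also stood apart in sex-linked genes: Xist had 104149 UMIs in FA and 15 in control, and the Y-linked gene Ddx3y was listed at 0 in FA and had 3928 UMIs in control, so FA and sex cannot be told apart. Each group is a single library, so no difference has a replicate check and none was tested. Levels are counts per 1000000 UMIs (CPM) of a class, and every interval is at 95% and covers counting error only. A gene was counted as higher or lower where its CPM ratio, FA over control, reached 1.5 or its inverse with at least 20 UMIs over both libraries, and genes listed at 0 in the whole of either library were left out of these counts.

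Lymphocytes were divided by marker genes that exclude the 9 genes. The clusters that scored as T or NK cells held 2756 FA cells (20.4% of kept cells) and 586 control cells (10.1%), with 14.0% and 5.04% of all UMIs. Within them, single cells were gated as NK (Ncr1 or Klrb1c without Cd3 genes; 422 FA and 39 control cells), CD8 (847 and 259), CD4 without Foxp3 (292 and 79) and gamma delta T (Trdc with a Cd3 gene; 97 and 11). The remaining 1090 FA and 196 control cells of these clusters passed no gate and are called other T or NK cells; 8 FA and 2 control cells were Foxp3+ CD4. Median depth was similar in both libraries for NK cells (2843.5 and 2889 UMIs) and CD8 cells (3038 and 3354 UMIs). Other classes were named from cluster markers and are called dendritic-like, macrophage-like and so on. Outside the T and NK clusters, clusters that reached no name held 3609 FA and 132 control cells.

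Over all kept cells, each of the 9 genes was higher in FA. For comparison, 21% of the 18056 genes measured were called higher in FA and 31% lower. The median log2 ratio was 1.45 for the 9 genes and -0.11 for all genes measured. Gzmb, the granzyme that cleaves caspases, stood at 52.3 CPM in FA and 6.27 CPM in control, a ratio of 8.34 (7.34 to 9.52). Ifng, which encodes interferon gamma, stood at 100.5 CPM in FA and 12.9 CPM in control, a ratio of 7.76 (7.10 to 8.50). Gzma had 281 CPM in FA and 44.0 CPM in control (ratio 6.39, 6.09 to 6.72). These 3 genes and Prf1, at 4.82 (4.25 to 5.47), were above the ratio of 2.77 by which T and NK clusters held a larger share of UMIs in FA. Gated NK cells alone held a share of UMIs 6.94 times as large in FA. That lay above the ratios of Gzma and Prf1 and below those of Gzmb and Ifng. Fasl had a ratio of 2.73 (2.35 to 3.18), Ccl5 2.72 (2.67 to 2.76), Nkg7 1.89 (1.81 to 1.97), Klrk1 1.72 (1.62 to 1.84) and Gzmk 1.59 (1.35 to 1.87). The calls of Nkg7, Klrk1 and Gzmk depended on the processing: with each cell weighed the same, their ratios were 1.25, 1.12 and 1.08, short of the fold, and the other 6 genes were called higher under every alternative run.

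Within the T and NK clusters the 9 genes divided. Gzmb (ratio 3.13), Ifng (2.87), Gzma (2.42) and Prf1 (1.89) were higher in FA, and Klrk1 (0.542) and Gzmk (0.591) were lower. Gzmk fell short of the fold with gates in every kept cell (0.697) and without cells that carry a tubule marker UMI (0.729). Of the 11938 genes measured there, 17.6% were called higher and 15.7% lower. Nkg7 had a ratio of 0.703, Ccl5 0.960 and Fasl 1.01 (0.864 to 1.18), none past the fold. The FA cells of these clusters also had a larger NK share, 15.3% against 6.66% in control, and a smaller CD8 share, 30.7% against 44.2%. Each gene is therefore also given within the gated classes.

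**Figure D1:**
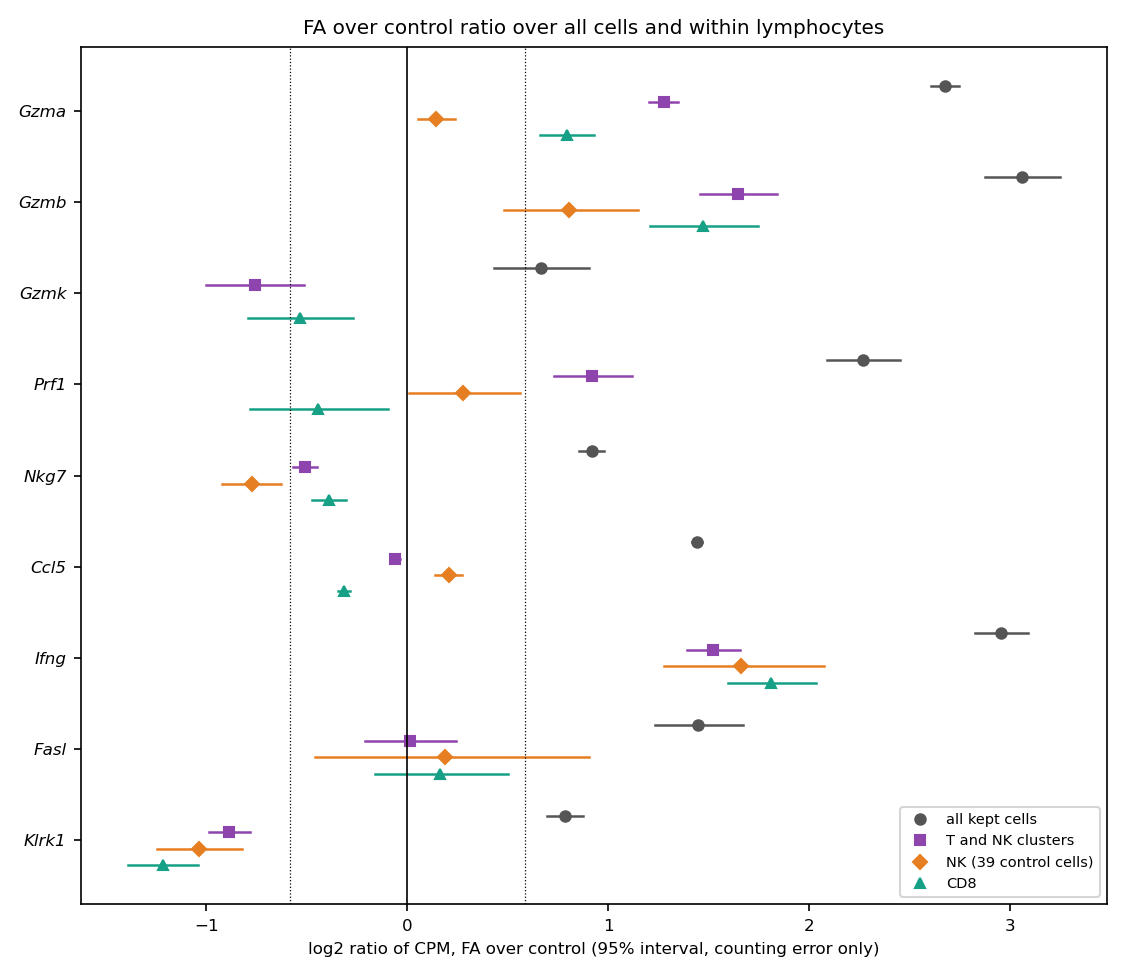
Log2 ratio of CPM, FA over control, for each gene over all kept cells, the T and NK clusters, NK cells and CD8 cells, with 95% intervals of counting error; dotted lines mark a 1.5-fold ratio. Every gene lies right of 0 over all kept cells, while Klrk1 lies left of 0 in the 3 lymphocyte sets and Gzmb and Ifng lie right of it in each; Gzmk has no NK ratio because no control NK cell carried it.

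Within the gated classes the 9 genes lay on both sides of control. In CD8 cells 3 were higher in FA (Gzma, Gzmb, Ifng), 1 was lower (Klrk1) and 5 were neither, beside 16.1% of 9418 genes called higher and 14.7% called lower. In CD4 cells 3 were higher (Gzma, Gzmb, Ifng) and 2 lower (Nkg7, Klrk1) of 7 measured, beside 20.9% and 15.2% of 6466 genes. In NK cells 2 were higher (Gzmb, Ifng) and 2 lower (Nkg7, Klrk1) of 8 measured, beside 20.6% and 22.9% of 6765 genes. The NK ratios rest on 39 control cells. In other T or NK cells 4 were higher (Gzma, Gzmb, Prf1, Ifng) and 2 lower (Nkg7, Klrk1), beside 18.7% and 19.1% of 9558 genes. Of those cells, 70 of 1090 in FA and 1 of 196 in control lay in the cluster named NK (cluster 24). The part of this in the ratios of that class was not tested. NK cells had the highest level of every one of the 9 genes except Gzmk, which was highest in CD8 cells, in both libraries; in control the NK interval overlapped that of the next class, the 11 gamma delta T cells, for Ifng, Fasl and Klrk1.

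Most UMIs of the granule genes came from the T and NK clusters. They held 99.5% of Gzma UMIs in FA and 1700 of 1790 in control, 97.6% and 94.1% of Gzmb, 95.5% and 87.8% of Prf1, 98.5% and 95.7% of Nkg7, and 98.6% and 96.4% of Ifng. Klrk1 was the least restricted, at 70.4% in FA and 80.9% in control. NK cells held 73.3% of Prf1 UMIs in FA against 42.0% in control, and 71.9% of Gzma UMIs in FA against 59.9% in control. CD8 cells were the main holders of Gzmk in both libraries, with 77.8% of its UMIs in FA and 86.4% in control. For Ccl5 the NK share was 31.9% in FA and 10.8% in control.

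**Figure D2:**
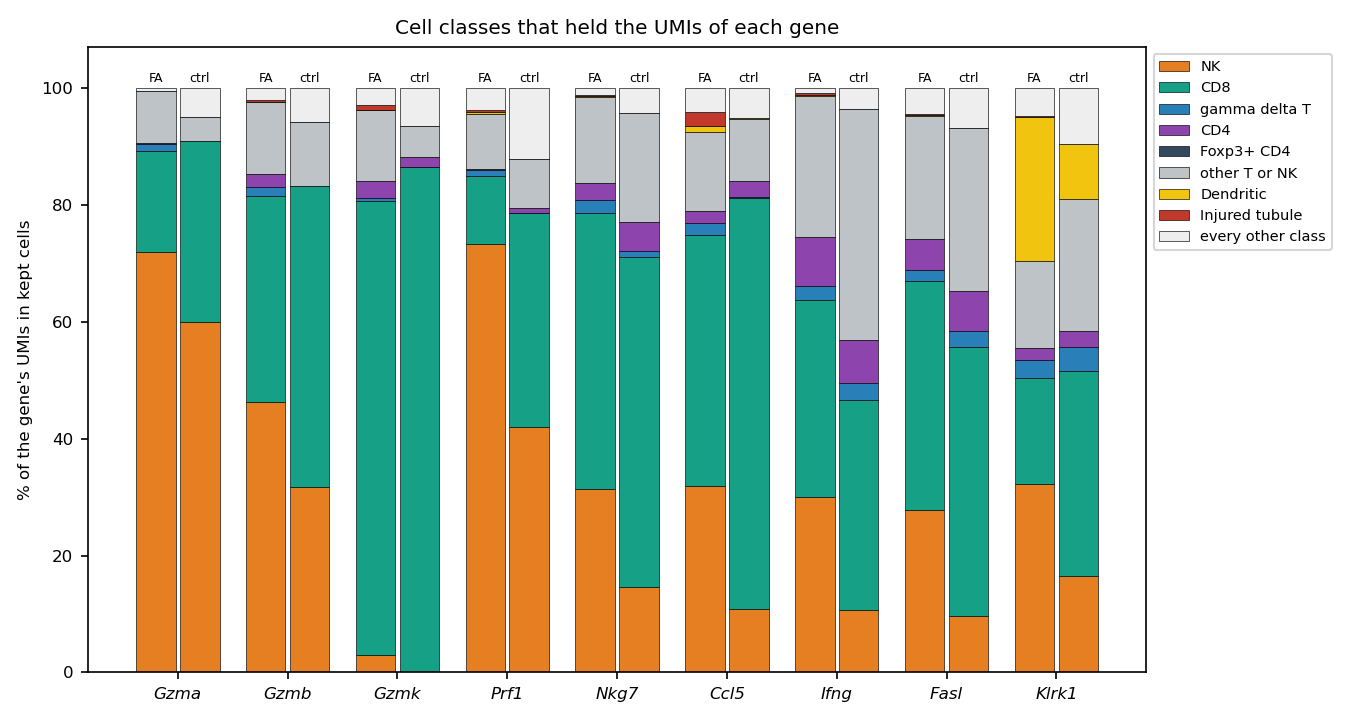
Share of the UMIs of each gene, in percent of its UMIs in kept cells, by cell class, with the FA bar left of the control bar. NK cells take the largest part of Gzma and Prf1 in both libraries, CD8 cells most of Gzmk, and dendritic-like cells 24.7% of Klrk1 in FA and 9.46% in control.

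Gzma, the tryptase granzyme, was foremost an NK gene. NK cells had 9318 CPM in FA and 8426 CPM in control, a ratio of 1.11 (1.04 to 1.18), and CD8 cells had 1008 CPM in FA and 581 CPM in control, a ratio of 1.74 (1.58 to 1.90). Its level thus differed little between the NK pools and passed the fold in CD8 cells, though not with likely doublets kept (ratio 1.42). Its spread over NK cells did differ: 92.4% of FA NK cells (89.5 to 94.8) and 61.5% of control NK cells (44.6 to 76.6, or 24 of 39 cells) carried a Gzma UMI. Among CD8 cells Gzma was concentrated: the 85 FA cells with most of it, of 847, held 75.9% of its UMIs, and the 26 control cells with most, of 259, held 89.5%. Gamma delta T cells had 595 CPM of Gzma in FA, from 10 of 97 cells, and none in the 11 control cells. Of the 97 FA cells, 8 lay in the cluster named NK (cluster 24), and none of the 11 control cells did. The part of this in the gamma delta T levels of Gzma and the other genes was not tested. In CD4 cells 32 UMIs were seen in 5 FA cells and 1 UMI in control, a ratio of 9.50 with an interval of 1.59 to 387, and it ranged from 2.66 to 14.4 over the alternatives, with the floor used where control had no UMI.

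Gzmb was higher in FA in NK and CD8 cells and was found in FA alone among gated CD4 and gamma delta T cells. NK cells had 1112 CPM in FA and 636 CPM in control (ratio 1.75, 1.40 to 2.22). CD8 cells had 381 CPM in FA and 137 CPM in control (ratio 2.78, 2.31 to 3.36). The 2 pairs of intervals did not overlap. CD4 cells had 65 UMIs in FA, 70.8 CPM from 21 of 292 cells, and 0 UMIs in 79 control cells, so against a floor of 3 counts in that class Gzmb was at least 6.44-fold higher in FA CD4 cells. That value ranged from 1.95, with each cell thinned to 1000 UMIs, to 9.76, with gates in every kept cell. Gamma delta T cells had 148 CPM in FA from 21 of 97 cells, and 0 of 11 control cells carried it. Thinned to 1000 UMIs a cell, 20.7% of FA CD8 cells (18.0 to 23.6) and 11.2% of control CD8 cells (7.66 to 15.7) had a Gzmb UMI, and 34.0% and 19.3% had one before thinning.

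Gzmk is a granzyme typical of memory-like CD8 cells, and its gated CD8 level lay below that of control. CD8 cells had 133 CPM in FA (120.2 to 148) and 193 CPM in control (166 to 223), a ratio of 0.692 (0.578 to 0.830), which did not reach the fold. With sub-clusters in place of gates the direction turned, at a ratio of 1.10. NK cells had 11.2 CPM in FA, or 14 UMIs in 422 cells, and no UMI in 39 control cells. The NK level of Gzmk overlapped that of CD4 cells, at 15.2 CPM in FA and 14.7 CPM in control. After thinning, 12.0% of FA and 19.8% of control CD8 cells carried Gzmk, and their intervals, 9.91 to 14.5 and 15.1 to 25.2, did not overlap. Gzmk thus ranked CD8 cells first and NK cells low, the reverse of Gzma and Gzmb.

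Prf1 encodes perforin, the pore former. NK cells had 1144 CPM in FA and 942 CPM in control (ratio 1.21, 1.01 to 1.47), from 83.4% and 84.6% of cells. CD8 cells had 80.9 CPM in FA and 110.0 CPM in control (ratio 0.736, 0.581 to 0.936), short of the fold. Other T or NK cells had 66.0 CPM in FA and 36.7 CPM in control, a ratio of 1.80 (1.17 to 2.88). Of these classes, the fold was thus reached in other T or NK cells and not in NK or CD8 cells. Other T or NK cells included 70 FA cells and 1 control cell of the cluster named NK, and the part of this was not tested. Plasma-cell-like cells had 18.8 CPM in FA and 10.2 CPM in control, yet after thinning 2.97% of FA cells and none of 60 control cells carried Prf1.

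Nkg7, a granule membrane protein that takes part in degranulation, was found in most NK and CD8 cells of both libraries and stood lower in FA. NK cells had 2044 CPM in FA and 3494.5 CPM in control, a ratio of 0.585 (0.529 to 0.648). CD8 cells had 1373 CPM in FA and 1797 CPM in control (ratio 0.764, 0.721 to 0.809). CD4 cells had 256 CPM in FA and 546 CPM in control, a ratio of 0.468. Thus the fold was reached in NK and CD4 cells and not in CD8 cells; with gates in every kept cell the CD4 ratio was 0.723, short of it. Nkg7 also had a wider reach than the granzymes, with a UMI in 31.2% of FA and 49.4% of control CD4 cells.

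Ifng was higher in FA in NK, CD8 and CD4 cells alike, and with Gzmb it was past the fold in each of these 3 classes. NK cells had 1391 CPM in FA (1326 to 1458) and 439.8 CPM in control (332 to 571), a ratio of 3.16 (2.42 to 4.20). CD8 cells had 699 CPM in FA (668 to 731) and 199 CPM in control (172 to 229.5), a ratio of 3.51 (3.02 to 4.10). CD4 cells had 528 CPM in FA and 143 CPM in control, a ratio of 3.69 (2.66 to 5.26). The 3 intervals overlapped each other, and each pair of libraries was apart beyond counting error. More cells carried it as well: after thinning, 33.4% of FA CD8 cells (30.2 to 36.7) and 18.2% of control CD8 cells (13.7 to 23.5), and 58.3% of FA and 35.9% of control NK cells. Gamma delta T cells had 428 CPM in FA and 365 CPM in control, with overlapping intervals. Other T or NK cells had 511 CPM in FA and 318 CPM in control, a ratio of 1.61.

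Ccl5, also called RANTES, is a chemokine that draws T cells and monocytes. It was the most abundant of the 9 genes by UMIs, with 16649 CPM in FA and 14433.5 CPM in control NK cells (ratio 1.15), and 10068 CPM in FA and 12520.1 CPM in control CD8 cells (ratio 0.804). CD4 cells had 1510.3 CPM in FA and 1716 CPM in control. No gated class with a ratio reached the fold for Ccl5. In gamma delta T cells it stood at 4117 CPM in FA, from 42 of 97 cells, and at 827 CPM in control, from 2 of 11 cells.

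Ccl5 was also present outside lymphocytes, in FA tubule cells among others. Injured tubule-like cells of FA had 346 CPM (329 to 364), in 14.3% of 1455 cells, and control held only 3 such cells. Within that class the cluster led by injury genes (cluster 31) had 504 CPM in 373 cells and the other cluster (cluster 28) had 128 CPM in 1082 cells. In cluster 31, 30 cells with at least 10 UMIs held 84.8% of its Ccl5. Over both clusters, 33 cells had at least 10 Ccl5 UMIs, and of these 66.7% carried Havcr1 (kidney injury molecule 1), 87.9% Vcam1 and 51.5% Krt20, against 26.9%, 38.5% and 10.5% of the 1247 cells without Ccl5. T cell genes were rare in the 33 cells: 1 carried Cd3e, 2 carried Cd3d and none carried Cd8a or Gzma. Their median depth was 8878 UMIs, against 1769 UMIs in cells without Ccl5, and the part of depth in these shares was not tested. Of the 33 cells, 30 lay in cluster 31, which was itself led by Vcam1 and Havcr1 and had Krt20 among its top genes. All 3 genes are also markers by which the class was named. The part of cluster membership in these shares was not tested. These shares leave out cluster 25, an unnamed cluster whose best match was injured tubule. It had 395 CPM of Ccl5 in 1086 FA cells, and 46 cells with at least 10 UMIs held 85.5% of that. The unnamed clusters 20 and 26 carried Ccl5 in 13.2% of 757 and 9.82% of 1304 FA cells. Of these, 1 and 2 cells had at least 10 UMIs. Injured tubule-like cells that carried Ccl5 had a median of 1 UMI of it. The part of RNA free in the droplets in the share of 14.3% was not tested. Intercalated-like cells had 144 CPM of Ccl5 in FA and 0 UMIs in control, at least 54.9-fold higher against the floor, but 3 FA cells held 58.5% of those UMIs. In dendritic-like cells Ccl5 had 118 CPM in FA and 66.2 CPM in control, a ratio of 1.78. There 20 FA cells with at least 10 UMIs held 85.4% of it, and 35% of them carried the migratory dendritic marker Ccr7, against 4.51% of cells without Ccl5. Of the 20 cells, 3 carried Cd3e.

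Fasl, the ligand of the death receptor Fas, did not differ past the fold in any gated class with a ratio. NK cells had 188 CPM in FA (165 to 213) and 165 CPM in control (102 to 252), and CD8 cells had 119 CPM in FA (106 to 132) and 106 CPM in control (86.2 to 129). The CD8 ratio was 1.12 (0.895 to 1.42) and the CD4 ratio 0.871. Intervals of the 2 libraries overlapped in NK, CD8 and CD4 cells. Fasl was sparse in every class, with a median of 1 UMI in the NK, CD8 and CD4 cells that carried it.

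Klrk1 encodes NKG2D, an activating receptor for stress-induced ligands, and it was lower in FA in every gated class. NK cells had 865 CPM in FA (814 to 918) and 1775 CPM in control (1551 to 2022), a ratio of 0.487. CD8 cells had 218 CPM in FA (201 to 236) and 505 CPM in control (461 to 552), a ratio of 0.431 (0.382 to 0.487). CD4 cells had 78.4 CPM in FA and 132 CPM in control (ratio 0.594), and gamma delta T cells 318 CPM in FA and 1410.0 CPM in control. After thinning, 52.9% of FA NK cells (48.0 to 57.9) and 87.2% of control NK cells (72.6 to 95.7) carried Klrk1, and 15.3% of FA and 27.5% of control CD8 cells. Other T or NK cells had 181 CPM in FA and 475 CPM in control, a ratio of 0.382. Thus the ratios of Klrk1 and Ifng lay on opposite sides of 1 in the class sums of NK, CD8 and CD4 cells.

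Dendritic-like cells carried Klrk1 at close levels in both libraries. They had 145 CPM in FA (135 to 155) in 47.5% of 762 cells, and 154 CPM in control (128 to 182) in 44.9% of 98 cells, a ratio of 0.945 (0.785 to 1.15). After thinning 13.2% of FA and 20.8% of control cells had a UMI, against at most 0.521% of B-cell-like cells in either library. Of the 362 FA dendritic-like cells with Klrk1, none carried the NK genes Ncr1 or Klrb1c, none carried Gzma or Nkg7, and 7 carried Cd3e. Of them 85.9% carried Klrd1, a lectin receptor gene, against 66% of the 400 cells without Klrk1, and 99.4% carried Tyrobp, a signalling adaptor. The cells with Klrk1 were deeper, at a median of 7811.5 UMIs against 6784.5 UMIs without it, and the part of depth in these shares was not tested. Among the 44 control cells with Klrk1, 39 carried Klrd1 and none carried Ncr1, Klrb1c, Gzma or Nkg7.

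**Figure D3:**
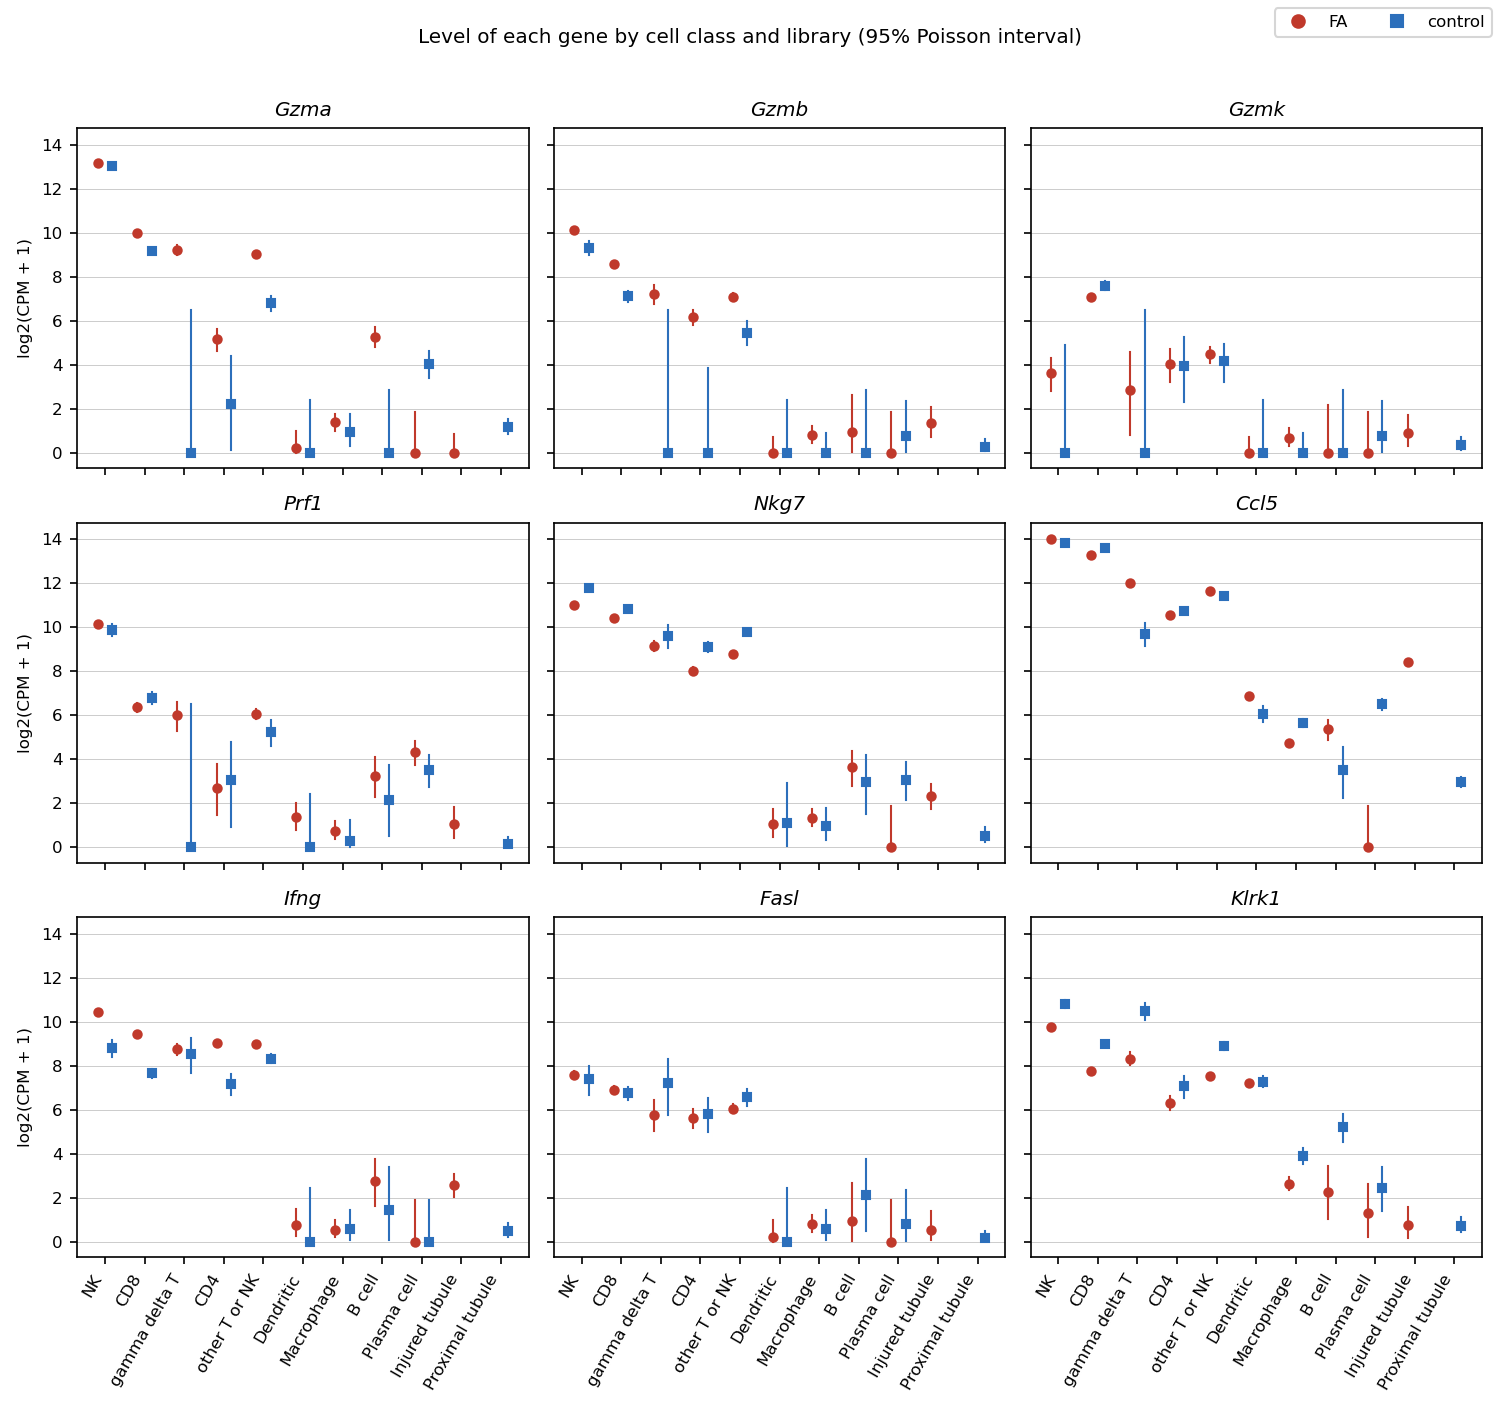
Level of each gene as log2(CPM + 1) by cell class, with FA left of control and 95% Poisson intervals; library and class pairs under 11 gated or 50 other cells are not drawn. Granule genes fall away outside the T and NK classes, Ccl5 extends to FA injured tubule-like cells (346 CPM) and Klrk1 to dendritic-like cells of both libraries (145 CPM in FA and 154 CPM in control).

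Outside the T and NK clusters Ccl5 reached 20 UMIs in every class compared except stromal-like cells. Gzma, Gzmb, Prf1, Nkg7 and Klrk1 each reached it in at least 1 of these classes, and Gzmk, Ifng and Fasl in none. In dendritic-like cells Ccl5 was higher and none was lower, beside 22.9% and 16.9% of genes. In macrophage-like cells Gzma (22 UMIs in FA and 4 in control) and Nkg7 (21 and 4) were called higher, both with intervals that held 1, and Ccl5 (ratio 0.519) and Klrk1 (0.378, 0.263 to 0.544) lower, beside 27.5% and 21%. In B-cell-like cells Gzma and Ccl5 were higher and Klrk1 lower, beside 18.7% and 14.5%. In plasma-cell-like cells Prf1 was higher, with a ratio of 1.84 (0.925 to 3.81), and Gzma and Ccl5 were lower, with 0 UMIs each in FA and 21 and 123 in control, beside 49.8% and 6.81%. Of those 123 Ccl5 UMIs, 97.6% lay in 3 cells. Endothelial-like cells had Ccl5 (0 UMIs in FA and 208 in control) and Nkg7 (1 and 61) lower, beside 19.6% of genes lower and 21.3% higher, from 65 FA cells; the Nkg7 ratio of 0.314 had an interval that held 1 (0.00782 to 1.82). Intercalated-like cells had Ccl5 higher (31.6% higher and 28.6% lower), monocyte-like cells Ccl5 lower (22.7% lower and 16.9% higher) and podocyte-like cells Ccl5 lower (12.5% lower and 14.1% higher). In stromal-like cells none of the 9 reached 20 UMIs.

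B-cell-like cells served as a class that should lack the 9 genes. After thinning, at most 1.12% of 446 FA cells (Ccl5) and at most 0.521% of 192 control cells carried any given one of them, at median depths before thinning of 1957 and 2441 UMIs. The few high B-cell-like values rested on single cells: 38 of the 40 Gzma UMIs in FA lay in 1 cell, as did 32 of the 42 Ccl5 UMIs in FA, and 19 of the 21 Klrk1 UMIs in control lay in 1 cell. In CD4 cells the thinned shares of Gzma (1.38% in FA and 1.30% in control), Gzmk (0.692% and 1.30%) and Prf1 (0.346% and 0%) were near this background. Gzmb in CD4 cells, at 3.11% of 289 FA cells (1.43 to 5.83) and 0 of 77 control cells, had an FA interval above the 1.24% that bounds FA B-cell-like cells from above.

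CD8 cells lay mainly in 2 clusters, and the genes ran at different levels in them. When the T and NK clusters were clustered again on their own, the libraries lay apart. Of the 2 sub-clusters named CD8, 1 held 574 FA and 13 control cells, and the other held 11 FA and 377 control cells. The latter was led by Gm4759, Gm8995, Gm1966 and the Y-linked gene Ddx3y, which was left out of the clustering genes. The libraries also differed in some gene names, of which 230 pairs were joined as synonyms before clustering. The part of this separation in the CD8 ratios was not tested. Cluster 0 was led by Cd8b1, Cd8a, Ccl5 and Nkg7 and held 553 FA and 190 control CD8 cells. Cluster 17, which reached no name of its own, was led by the naive and memory T cell genes Lef1, Tcf7, Satb1, Il7r and Ccr7 and held 221 FA and 63 control CD8 cells. In cluster 0 Ifng had 1009 CPM in FA and 289 CPM in control (ratio 3.49, 2.99 to 4.09), Gzmb 535 and 202 CPM (2.65, 2.20 to 3.22), and Klrk1 302 and 747 CPM (0.404, 0.356 to 0.459). In cluster 17 Ifng had 185 CPM in FA and 6.78 CPM in control, the control value being 2 UMIs (ratio 27.3, 7.44 to 228). Gzma and Gzmb had 93.8 and 84.2 CPM in FA cells of cluster 17 and no UMI in its 63 control cells, at least 9.23-fold and 8.28-fold higher against the floor. Ccl5 had a ratio of 0.784 in cluster 0 and 2.62 in cluster 17, and Klrk1 one of 3.73 (1.62 to 10.5) in cluster 17, from 63 FA and 6 control UMIs. Klrk1 was therefore lower in FA in the CD8 cells of cluster 0 and higher in those of cluster 17, while Ifng and Gzmb were higher in both.

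**Figure D4:**
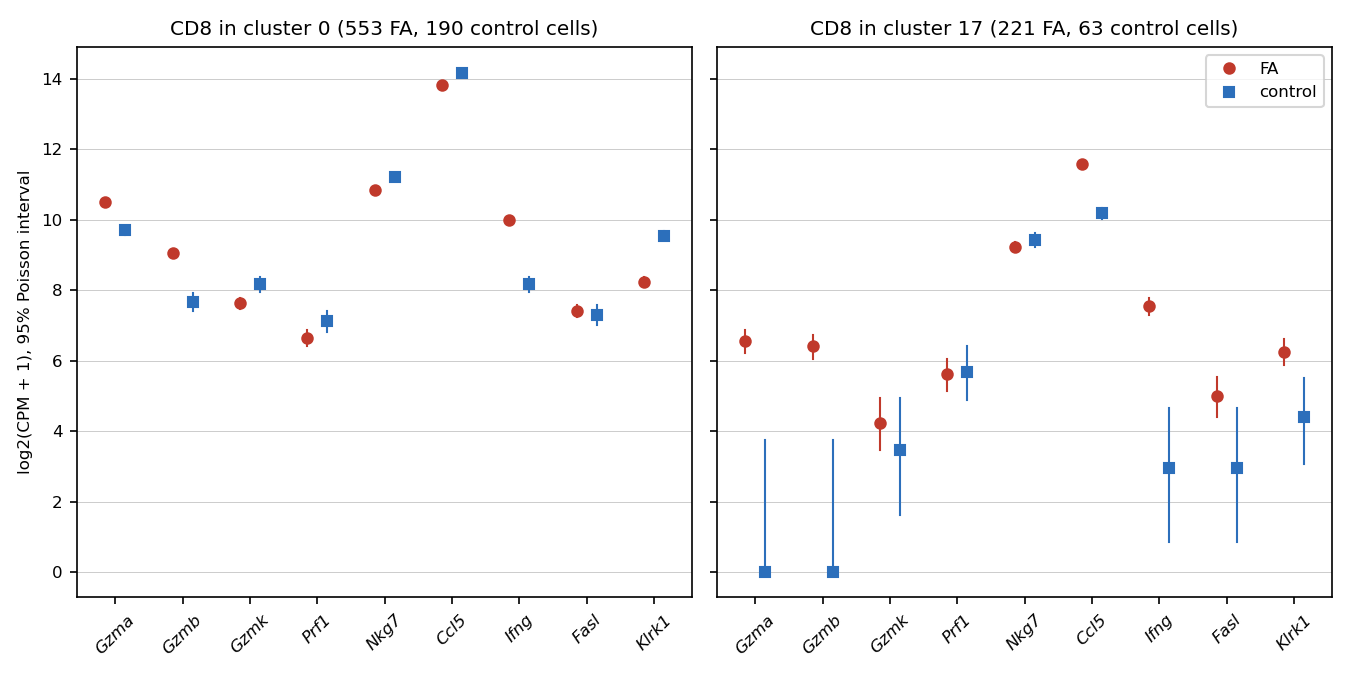
Level of each gene in CD8 cells of cluster 0 (left) and cluster 17 (right) as log2(CPM + 1) with 95% Poisson intervals, FA as circles left of control as squares. Gzma and Gzmb have no UMI in the control cells of cluster 17, and Klrk1 lies below control in FA in cluster 0 (302 and 747 CPM).

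CD4 cells of the 2 libraries lay in the same clusters but in different proportions. Of 292 FA CD4 cells, 219 lay in cluster 22, which was led by Il17a, Icos and Areg, against 35 of 79 control CD4 cells. Within cluster 22 Ifng had 608 CPM in FA and 159 CPM in control (ratio 3.82, 2.44 to 6.32), and Gzmb had 50 UMIs in FA and none in control, at least 2.92-fold higher. Nkg7 in that cluster had a ratio of 0.774 (0.554 to 1.10), against 0.468 over all CD4 cells. Klrk1 there had a ratio of 0.508 (0.301 to 0.892), and Ccl5 one of 1.99 (1.62 to 2.48), against 0.880 over all CD4 cells.

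The genes were also carried together by single cells to different degrees. NK cells had a median of 7 of the 9 genes in FA and 6 in control, CD8 cells 4 in each, CD4 cells 1 in FA and 2 in control, and B-cell-like cells 0 in each. With cells thinned to 1000 UMIs, the medians were 5 and 4 in NK cells and 3 in both sets of CD8 cells. Among thinned FA CD8 cells, 53.5% of the 172 with Gzmb carried Gzma, against 16.4% of the 658 without it, and in control 55.2% of 29 did, against 9.17% of 229. Ifng was found in 44.2% of FA CD8 cells with Gzmb and 30.5% of those without, and in control in 8 of 29 and 39 of 229. Prf1 was found in 8% of the 100 FA CD8 cells with Gzmk and 8.08% of the 730 without, and in control in 7 of 51 and 25 of 207. Before thinning it was found in 27.2% of FA CD8 cells with Gzmk and 18.3% of those without, and in control in 37.5% and 25.8%. Of the 208 FA CD8 cells without Ccl5, 1 carried Gzma and 6 carried Gzmb; none of the 58 control cells without Ccl5 carried either. In control, 54.1% of 37 CD8 cells with Gzma carried Klrk1, against 23.1% of 221 without, and in FA 27% of 200 did, against 11.6% of 630.

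**Figure D5:**
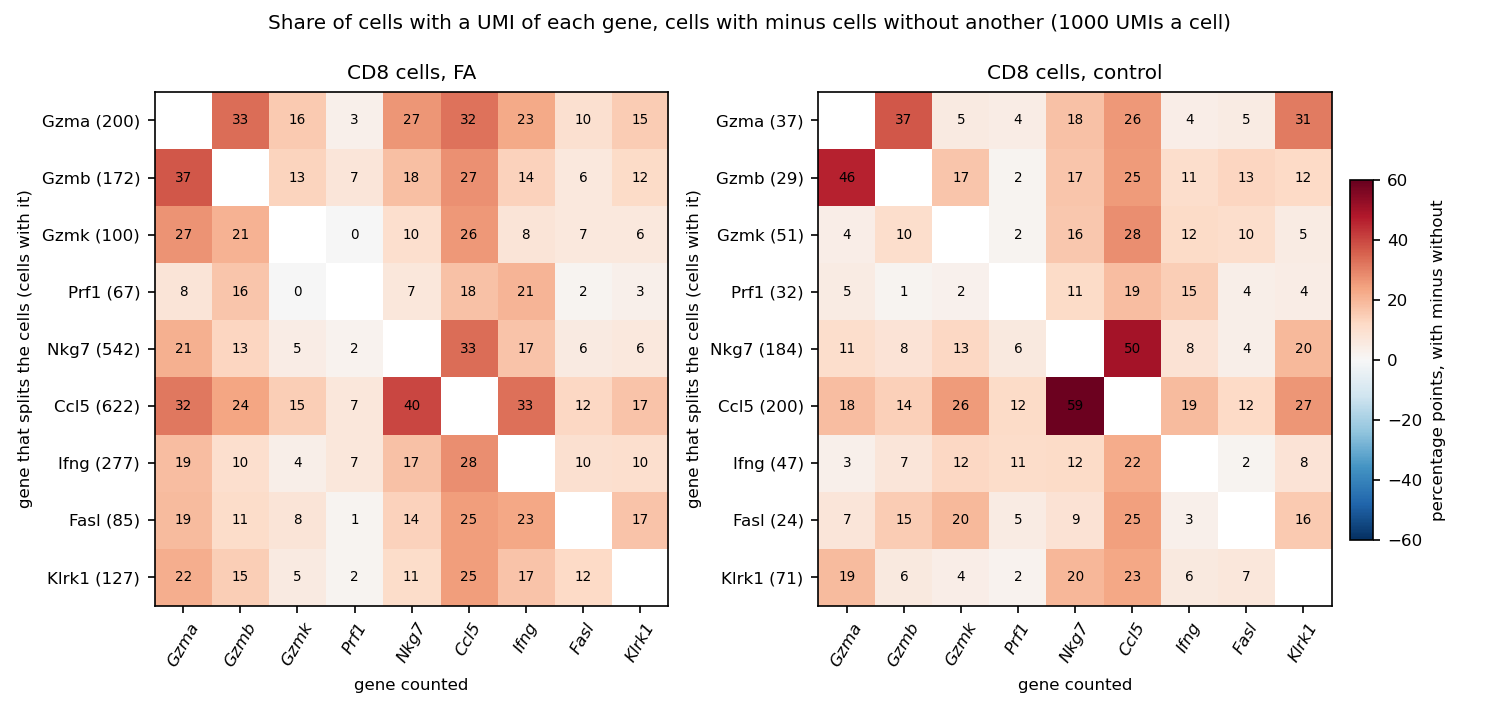
For CD8 cells thinned to 1000 UMIs, the share carrying the gene of each column in cells with the gene of the row minus that in cells without it, in percentage points, FA left and control right; the number of cells with each gene stands beside its name. Cells with Gzmb carried Gzma more often in both libraries (53.5% against 16.4% in FA, 55.2% against 9.17% in control).

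Across the class sums of both libraries, 32 profiles of classes with at least 50 cells, the pattern most like each gene was mostly another gene of the 9 or a lymphocyte gene. Pearson's r of log2(CPM + 1) is given as a description; the profiles share libraries and depth. Gzma was closest to Gzmb (r = 0.935), Klrb1c (0.923) and Prf1 (0.916), and Gzmb next to Gzma was closest to Crtam (0.909). Prf1 was closest to Gzma and then Gm19585 (0.897). Gzmk stood apart, closest to Sh2d1a (0.925), Gm29243 (0.921) and Gm20069 (0.910). Ifng and Fasl were closest to each other or to Zap70 (Ifng with Fasl 0.966, Fasl with Zap70 0.967), and Nkg7 to Zap70 (0.956), Sh2d2a (0.955) and Ifng (0.954). Ccl5 had the loosest neighbours, Nkg7 (0.869), Gm15472 (0.866) and Ms4a4b (0.860). Klrk1 was closest to Klrd1, then Cd7 (0.917) and Klrb1f (0.915).

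Other genes of the pathway followed the same division between all cells and lymphocytes. Of 8 partner and granule genes, 7 were measured over all kept cells and all 7 were higher in FA, beside 21% of all genes measured, with Srgn, the proteoglycan core of granules, at a ratio of 2.66 and the protease Ctsc, which activates granzymes, at 3.13. In CD8 cells 2 of the 7 measured were higher and none lower, beside 16.1% and 14.7% of genes: Serpinb6b (158 CPM in FA and 54.5 CPM in control, ratio 2.90) and Serpinb9 (125 and 80.7 CPM, ratio 1.55), both serpins, of which Serpinb9 inhibits granzyme B. Both also passed the fold in NK cells, at 1.83 and 1.90. Gzmc, the one not counted, had 295 UMIs in FA and was listed at 0 in control. Whether that 0 stands for absent RNA or for a name missing from the control library was not tested. Of the 5 granule release genes, 3 were higher over all kept cells, and Stx11, with a ratio of 1.58 in the T and NK clusters (1.18 to 2.14), was the one higher there; Lamp1 and Stxbp2 stood at 1.06 and 0.878.

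Receptors, adaptors and ligands of the pathway were measured for 11 of 13 genes over all kept cells, 9 of them higher in FA and 1, the ligand gene H60c, lower (ratio 0.580, from 9 FA and 11 control UMIs). The other 2 were listed at 0 in control and were not counted, and whether their names were missing from that library was not tested. Ifngr1, a chain of the interferon gamma receptor, had a ratio of 2.21 over all kept cells and 1.39 in CD8 cells. Hcst, which encodes the NKG2D adaptor DAP10, had a ratio of 1.93 over all kept cells but 0.722 (0.666 to 0.784) in CD8 cells and 0.748 (0.598 to 0.946) in NK cells. Ulbp1, an NKG2D ligand gene chosen after its values were seen, had 17.9 CPM in FA (15.7 to 20.3) and 5.49 CPM in control (3.48 to 8.23) in macrophage-like cells. Raet1d, a ligand gene among those not counted and chosen in that way, had 38 of its 52 FA UMIs in macrophage-like cells and was listed at 0 in control.

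Regulators and further effectors of CD8 cells ran mostly level or lower in FA. Of 12 regulators measured in CD8 cells, Tbx21 (ratio 1.51) was higher and Il18r1 (0.590), Il12rb1 (0.618) and Eomes (0.623) were lower, beside 16.1% of all genes higher and 14.7% lower, with a median log2 ratio of -0.36 against -0.01 over all genes measured. The interval of Il12rb1 in CD8 cells, from 36 FA and 20 control UMIs, held 1 (0.348 to 1.13). Runx3 and Il2rb, the interleukin receptor chain of effector cells, had ratios of 0.966 and 0.955 there. Of 8 further effectors, none was higher and 4 were lower in CD8 cells, beside the same 16.1% and 14.7%: Klre1 (0.457), Xcl1 (0.507), Ccl3 (0.614) and Klrc1 (0.626), with a median log2 ratio of -0.59. Except Ccl3, the genes called here were named after their values were seen, as were Gzmc and H60c. Ccl3, a chemokine, had a ratio of 1.55 in NK cells, and Ccl4, its close relative, had 0.903 in CD8 and 1.27 in NK cells.

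Markers of the gate itself and of other cells also differed between the libraries. In CD8 cells the T cell genes Cd3e and Cd8a had 390 and 438 CPM in FA, against 653 and 728 CPM in control, while Cd3d had 988 CPM in FA and 1024 CPM in control. The 8 T cell markers summed to 5255 CPM in FA and 6356 CPM in control CD8 cells. The 11 proximal tubule markers summed to 120.5 CPM in FA and 348 CPM in control CD8 cells, with 1 and 0 of them at 0, and to 145 and 204 CPM in NK cells, with 1 and 3 at 0. The 6 injured tubule markers summed to 60.4 CPM in FA and 2.10 CPM in control CD8 cells, where 5 of the 6 were at 0, and to 60.2 CPM in FA NK cells and 0 in control NK cells. The 7 macrophage markers summed to 59.9 CPM in FA and 322.6 CPM in control CD4 cells, and to 36.0 and 99.6 CPM in CD8 cells. NK cells went the other way, at 64.2 CPM in FA and 31.4 CPM in control. The part of these markers in the ratios of the 9 genes was not tested.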

How the data were processed

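Droplet single-cell RNA sequencing was analysed from 1 FA and 1 control kidney library. The values are whole UMI counts per gene and barcode in a table the authors deposited; Seurat and mm10 are named per the submitters' processing notes, and no aligner or counter is given in the sources used here. Columns were matched to samples by barcode prefix, and the prefix C3 was taken as control from its letter. The members, lists and rules were chosen with earlier results of these data known.

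Barcodes were kept from 200 genes and 500 UMIs upward if no more than 50% of UMIs were mitochondrial, and likely doublets, 0.8% per 1000 barcodes by a simulated-doublet score, were left out (2420 FA and 488 control). Cells were clustered on 2000 variable genes without the 9 members, with 30 principal components, 15 neighbours and Leiden resolution 1, and named from marker lists; the naming thresholds were set after the clusters were seen. NK cells had a UMI of Ncr1 or Klrb1c and none of Cd3d, Cd3e or Cd3g. The T cell gates needed a Cd3 UMI with Cd8a or Cd8b1 (CD8), Cd4 (CD4) or Trdc (gamma delta T) and none of the genes of the other gates, except that Cd8a was allowed in gamma delta T cells. Counts were summed per class and library and given as CPM with exact Poisson intervals, ratios with exact conditional binomial intervals and shares with Clopper-Pearson intervals, all at 95% and covering counting error only. Ratios were given for classes of at least 50 cells in each library and, added after seeing the data, for NK cells. A level of 0 was set to a floor of 3 counts per class and library for a fold. For shares, cells were thinned to 1000 UMIs.

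Named were the 9 members, each pathway list's counts and up to 4 of its genes with most UMIs, and for each member the 3 genes of highest Pearson r among those with at least 100 UMIs; others are marked in the text. One gene of these lists is not reported here. Of the code, the ratio and its interval were tested on simulated counts. Python 3.11.15, scanpy 1.11.5, scipy 1.17.1, numpy 2.4.6, scikit-learn 1.9.0, python-igraph 0.11.9 and pandas 2.3.3 were used.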

Additional observations from a re-analysis of the deposited data

Results flagged for a closer look

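The Ccl5 ratio, FA over control, lay on opposite sides of 1 in different classes outside the T and NK clusters. It was 3.88 in B-cell-like cells and 1.78 in dendritic-like cells, and 0.519 in macrophage-like, 0.0618 in monocyte-like and 0.0577 in podocyte-like cells. The differences between classes were not tested. Few cells carried most of these UMIs: 32 of 42 lay in 1 cell in FA B-cell-like cells, 36 of 38 in 1 control monocyte-like cell and 80 of 84 in 1 control podocyte-like cell.

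The barcodes left out by the filters or as likely doublets also carried the 9 genes. Their summed level was 613 CPM in 5495 FA barcodes (603 to 622) and 200.04 CPM in 3874 control barcodes (194 to 206), from 16370 and 4590 UMIs.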

How the results depend on the processing

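No called ratio changed direction under the alternatives run. Of 271 recomputed ratios 179 moved by less than the counting interval and 92 by more, and of 80 recomputed counts of genes called 70 stayed within 1.5 times. The count of 9 higher over all kept cells became 7 with the stricter cell filter and with likely doublets kept, and 6 with each cell weighed the same, thinned to 1000 UMIs or at a fold of 2. The counts that moved by more were of genes lower in FA. In CD8 cells the count of 1 became 2 with likely doublets kept, with each cell weighed the same, with gates of 2 UMIs and without cluster 17, and 3 with cells thinned to 1000 UMIs. In the T and NK clusters the count of 2 became 1 with gates in every kept cell, 0 at a fold of 2 and 1 without cells that carry a tubule marker UMI. In CD4 cells the count of 2 became 1 with gates in every kept cell and 1 at a fold of 2. The causes were not tested. The alternatives without cluster 17 and without tubule marker UMIs were chosen after seeing the data. The CD8 ratio ranged from 2.89 to 3.99 for Ifng, from 1.72 to 4.16 for Gzmb, from 1.42 to 3.13 for Gzma and from 0.385 to 0.498 for Klrk1; those of Gzmk (0.560 to 1.10), Prf1 (0.649 to 1.25), Nkg7 (0.712 to 1.04) and Ccl5 (0.742 to 1.40) reached both sides of 1. Called ratios elsewhere also moved by over 1.5 times: with likely doublets kept Gzmb was 4.74 over all kept cells and 2.04 in the T and NK clusters, with each cell weighed the same Gzma was 4.20 over all kept cells, and in CD4 cells Ifng was 5.60 with gates in every kept cell and Klrk1 0.362 after thinning. CD4 cells could not be compared with gates of 2 UMIs, in sub-clusters or without tubule marker UMIs, where fewer than 50 control cells remained. No paired analysis was possible because each group has 1 library. Counting limits the control NK and gamma delta T cells, with 39 and 11 cells, and no member is compared in Foxp3+ CD4 cells, with 8 FA and 2 control cells.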
